A study of Homo sapiens with 6 samples.

Results

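The small proline-rich (SPRR) proteins are precursors of the cornified envelope, the protein layer under the plasma membrane of differentiating squamous cells. The 6 SPRR genes described here, SPRR1A, SPRR1B, SPRR2A, SPRR2D, SPRR2E and SPRR3, were taken by gene symbol from a table of 18678 genes. RefSeq lists 12 family genes, and the expression of the other 6 (SPRR2B, SPRR2C, SPRR2F, SPRR2G, SPRR4 and SPRR5) was not analysed here. Polyadenylated RNA was sequenced, with strand kept, from Cal27 cells, a human line established from a tongue squamous cell carcinoma, and from Cal27-shGRK2 cells, the same line with a short hairpin RNA against GRK2, a kinase of activated G protein-coupled receptors. Both groups were grown in serum-supplemented DMEM and collected below confluence, per the labels' protocols. The labels give 3 libraries a group and leave unsaid whether Cal27 carried a control hairpin, which hairpin was used and whether the hairpin line was a clone or a pool. The comparison asks what the SPRR genes did in the hairpin line, in a series whose title links GRK2 to keeping squamous carcinoma cells epithelial.

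In squamous cells, transglutaminases link SPRR proteins to one another and to loricrin, involucrin and keratin-bound proteins through glutamine and lysine residues at their ends, while a run of short proline-rich repeats forms the middle of the molecule. The genes lie side by side in the epidermal differentiation complex on the long arm of chromosome 1. SPRR1 genes are known as markers of squamous differentiation, SPRR2 genes as genes induced by stress and inflammation, and SPRR3 as a gene of moist stratified epithelia such as the mouth and oesophagus.

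Replicates 0 and 1 of Cal27-shGRK2 are identical in every one of the 18678 genes. They were counted as 1 sample and are called the repeated Cal27-shGRK2 library here. Each comparison thus sets 3 Cal27 libraries against 2 of Cal27-shGRK2, the repeated one and replicate 2, named in that order. The labels do not name separate cultures; the p-values therefore reflect only how far these samples spread, and that spread may be technical. Values are FPKM, fragments scaled to transcript length and library size, from which depth is unknown; they summed to 590163 to 644831 a library. GRK2 (listed as ADRBK1), the target of the hairpin, was at 55.3, 59.4 and 55.8 FPKM in Cal27 against 17.3 and 16.6 FPKM in Cal27-shGRK2. Of 10 squamous markers, all were detected and all were called lower in Cal27-shGRK2 (beside 14.6% of all genes tested), with a summed level of 3212 to 3600 FPKM in Cal27 against 1218 to 1264 FPKM in Cal27-shGRK2.

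The coding sequences show how closely the SPRR genes resemble one another, which matters because a read from a shared stretch cannot be assigned to 1 gene. The 219 coding bases of SPRR2A, SPRR2D and SPRR2E (stop codon included, GENCODE version 29, hg38, minus strand, chr1:153056517-153056735, chr1:153040128-153040346 and chr1:153093533-153093751) are printed with capitals at each base that differs from SPRR2A.
SPRR2A: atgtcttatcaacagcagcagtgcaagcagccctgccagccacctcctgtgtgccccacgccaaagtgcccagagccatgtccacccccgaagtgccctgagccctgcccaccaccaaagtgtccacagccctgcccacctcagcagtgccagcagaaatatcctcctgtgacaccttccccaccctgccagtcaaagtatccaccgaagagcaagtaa
SPRR2D: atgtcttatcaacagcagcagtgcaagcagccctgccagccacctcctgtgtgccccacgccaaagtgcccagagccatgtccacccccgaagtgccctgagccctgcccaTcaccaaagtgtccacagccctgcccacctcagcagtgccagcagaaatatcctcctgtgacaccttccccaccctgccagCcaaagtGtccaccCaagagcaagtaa
SPRR2E: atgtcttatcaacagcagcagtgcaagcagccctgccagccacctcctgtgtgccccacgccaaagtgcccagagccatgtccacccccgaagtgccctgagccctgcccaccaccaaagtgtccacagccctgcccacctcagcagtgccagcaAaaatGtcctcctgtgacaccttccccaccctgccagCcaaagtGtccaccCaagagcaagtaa
SPRR2D differed from SPRR2A at 4 of 219 bases, none of them in the first 111, and SPRR2E at 5, none in the first 155. Of all 50-base windows of their transcripts, 32.7% for SPRR2A, 19.3% for SPRR2D and 23.4% for SPRR2E also occurred in another SPRR gene. These genes included SPRR2B, SPRR2F and SPRR2G, whose expression was not analysed here.

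The SPRR1 pair was less alike. The 270 coding bases of SPRR1B and SPRR1A (plus strand, chr1:153032346-153032615 and chr1:152985231-152985500) are printed with capitals at each base of SPRR1A that differs from SPRR1B.
SPRR1B: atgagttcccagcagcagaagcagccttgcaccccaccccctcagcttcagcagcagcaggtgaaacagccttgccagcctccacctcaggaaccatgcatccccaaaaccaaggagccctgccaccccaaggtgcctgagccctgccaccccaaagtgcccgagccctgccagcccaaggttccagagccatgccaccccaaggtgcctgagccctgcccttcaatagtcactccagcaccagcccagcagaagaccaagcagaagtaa
SPRR1A: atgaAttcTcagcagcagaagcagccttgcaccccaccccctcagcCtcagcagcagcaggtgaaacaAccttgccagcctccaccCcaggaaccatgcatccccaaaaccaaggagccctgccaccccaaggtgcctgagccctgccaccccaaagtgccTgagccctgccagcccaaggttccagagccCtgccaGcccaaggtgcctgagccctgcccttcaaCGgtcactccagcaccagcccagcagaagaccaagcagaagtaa
They differed at 10 of 270 bases, the longest run without a difference being 74 bases, and shared 25 of their 50-base windows, 11.3% of those of SPRR1A and 4.38% of those of SPRR1B. SPRR3, with 510 coding bases, shared none of its 50-base windows with another SPRR gene, so its values rest on sequence of its own at that length. No window of any of the 6 genes occurred in a GENCODE transcript outside the family.

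In Cal27 all 6 genes were expressed, and in both Cal27-shGRK2 libraries every one of them was below 1 FPKM. Their summed level was 55.6, 61.5 and 56.5 FPKM in Cal27 against 2.31 and 1.35 FPKM in Cal27-shGRK2, a ratio of means of 31.6. Without SPRR1A, whose values have limits given below, the ratio was 20.0. The sums did not overlap, and they have no test of their own because members were chosen with results known. In bulk RNA, fewer SPRR-expressing cells and less SPRR RNA per cell cannot be told apart. The squamous markers given above were lower in the same libraries, and their part in the SPRR difference was not tested.

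**Figure D1:**
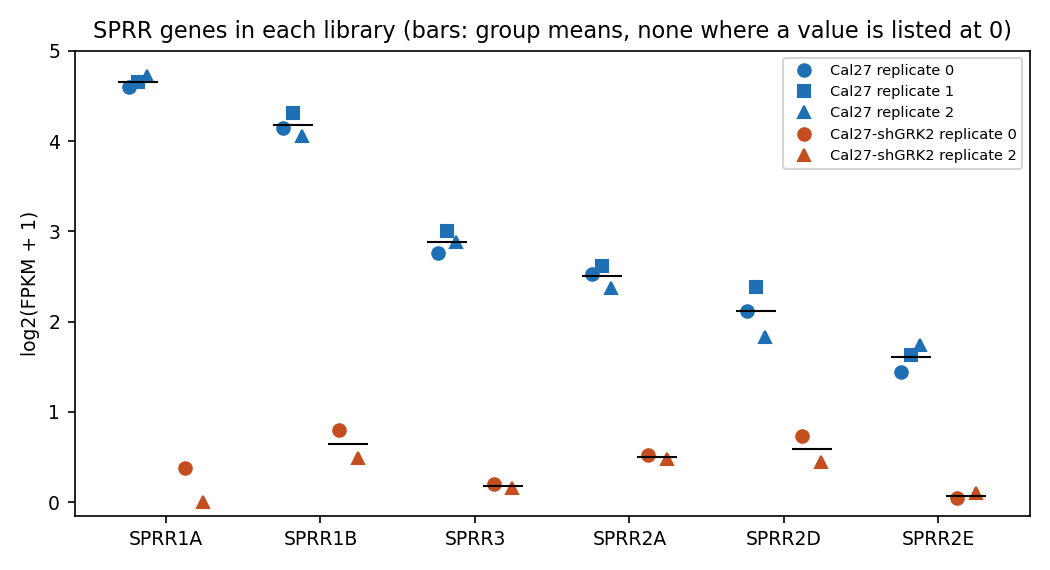
Level of each SPRR gene in the 5 distinct libraries, on the log2(FPKM + 1) scale, with 1 point a library and a bar at each group mean except for SPRR1A in Cal27-shGRK2, where 1 value is listed at 0; Cal27 in blue, Cal27-shGRK2 in orange. In each gene every Cal27 library lies above both Cal27-shGRK2 libraries, which are all below 1 FPKM.

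Differences were tested with limma on log2(FPKM + 1) over the 13377 genes whose mean over libraries reached 1 FPKM, with Benjamini-Hochberg adjustment over all of them and a threshold of 0.05. All 6 SPRR genes were called lower in Cal27-shGRK2, beside 14.6% of all genes tested called lower (1949 genes), 15.0% called higher (2008 genes) and 29.6% called either way. These counts depended on the processing. With libraries rescaled to a common total, 14483 genes reached the filter, and the split was 1575 lower and 2927 higher. The split was 2062 and 2208 with median-of-ratios scaling and 2099 and 2100 with quantile normalization. The ranges on leaving out 1 library are given below. The 6 genes passed the filter through their Cal27 values alone, so their count after the filter is no support. With no filter, where 10.5% of 18678 genes were lower, each of the 6 was again called lower (limma adjusted p from 3.2e-08 to 2.9e-04). In all 6 the groups did not overlap, beside 27.4% of the genes tested with every Cal27-shGRK2 library below every Cal27 library and 53.3% without overlap in either direction. The exact two-sided permutation test of a single gene, with 3 against 2 libraries, cannot go below p = 0.1, and each of the 6 genes had that value.

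SPRR1B, also called cornifin (ENSG00000169469.8, 2 exons, plus strand, 153031202 to 153032900 on chromosome 1), was the highest SPRR gene in both Cal27-shGRK2 libraries and the next highest after SPRR1A in Cal27. Its FPKM was 16.7, 18.9 and 15.7 in Cal27 replicates 0, 1 and 2, 0.734 in the repeated Cal27-shGRK2 library, and 0.405 in replicate 2. The lowest Cal27 value thus stood far above the higher Cal27-shGRK2 value. The mean went from 17.1 ± 1.62 (SD, n = 3) to 0.570 ± 0.233 (SD, n = 2), a 30.0-fold ratio. The ratio was 42.2 without the repeated Cal27-shGRK2 library and 23.3 without Cal27-shGRK2 replicate 2. The log2 fold change was -3.53 ± 0.10 (SE, limma adjusted p = 5.5e-12), rank 9 from the lowest of 13377.

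SPRR1A (ENSG00000169474.4) had the highest FPKM in Cal27, at 23.2, 24.2 and 25.4. It was at 0.304 FPKM in the repeated Cal27-shGRK2 library and listed at 0 in replicate 2. An exact 0 can be a failed estimate in such tables, so no mean is given for that group. The log2 fold change was -4.47 ± 0.10 (SE, limma adjusted p = 6.8e-13), rank 3 from the lowest. The authors' deposited table lists a log2 fold change of -7.90 for SPRR1A but does not call it, with p = 0.245 and q = 0.606. With a pseudocount of 0.1 in place of 1, the log2 fold change was -6.92 ± 0.74 (SE, limma adjusted p = 0.011).

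The gene model behind SPRR1A differs from those of the other 5 genes. In the files it spans 152985231 to 152985500, which is the single 270-base coding exon of GENCODE version 29, whereas RefSeq places the gene from 152984081 to 152985814 (1734 bases). The files' span is 15.6% of the RefSeq span and leaves out the noncoding parts of the transcript. The length that scales its FPKM is therefore unlike that of SPRR1B, whose transcript has 620 bases for the same coding length, so the order of these 2 genes in Cal27 rests on lengths from unlike gene models. SPRR2E has the opposite feature, a span of 13050 bases in the files against 1392 bases in RefSeq, although its 2 GENCODE transcripts have 678 and 692 bases.

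SPRR3 (ENSG00000163209.14, plus strand, 153001747 to 153003856 on chromosome 1), the mucosal member and the one with no window shared with the others, was at 5.79, 7.03 and 6.34 FPKM in Cal27 against 0.147 and 0.118 FPKM in Cal27-shGRK2. Both hairpin libraries were close to each other and far under the 3 Cal27 libraries. The Cal27 mean of 6.39 ± 0.621 FPKM (SD, n = 3) was 48.3 times the Cal27-shGRK2 mean of 0.132 ± 0.0203 FPKM (SD, n = 2). The log2 fold change was -2.70 ± 0.10 (SE, limma adjusted p = 3.8e-11), rank 21 from the lowest.

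The SPRR2 genes, precursors shorter than SPRR1 and SPRR3, were the lowest of the family in Cal27. SPRR2A (ENSG00000241794.1, minus strand, 153056113 to 153057537) was at 4.76, 5.14 and 4.17 FPKM in Cal27 against 0.432 and 0.395 FPKM in Cal27-shGRK2. Its mean fell 11.3-fold, and the 2 hairpin libraries nearly coincided. The log2 fold change was -2.01 ± 0.10 (SE, limma adjusted p = 1.3e-09), rank 44 from the lowest.

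SPRR2D (ENSG00000163216.6, minus strand, 153039725 to 153041931) varied most between replicates, with a coefficient of variation of 24.4% in Cal27, against 4.39% to 15.2% for the other 5 genes. It was at 3.35, 4.21 and 2.56 FPKM in Cal27 against 0.663 and 0.360 FPKM in Cal27-shGRK2. The groups were still apart, with a 6.60-fold ratio of means, the smallest of the family. That ratio was 9.37 without the repeated Cal27-shGRK2 library and 5.09 without Cal27-shGRK2 replicate 2. The log2 fold change was -1.52 ± 0.16 (SE, limma adjusted p = 2.9e-05), rank 92 from the lowest.

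SPRR2E (ENSG00000203785.8, minus strand, 153093135 to 153106184) was the least expressed, at 1.72, 2.09 and 2.34 FPKM in Cal27 against 0.0287 and 0.0699 FPKM in Cal27-shGRK2. Its ratio of means was 41.6, or 29.4 without the repeated Cal27-shGRK2 library and 71.6 without Cal27-shGRK2 replicate 2. With the pseudocount of 1, however, its log2 fold change was -1.54 ± 0.12 (SE, limma adjusted p = 1.0e-07, rank 88 from the lowest), about that of SPRR2D. The pseudocount of 1 shrinks the change of a gene this low, so a fold on that scale says little about which SPRR gene lost the larger share of its level. Without Cal27 replicate 2 its mean was below the filter and it was not tested.

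**Figure D2:**
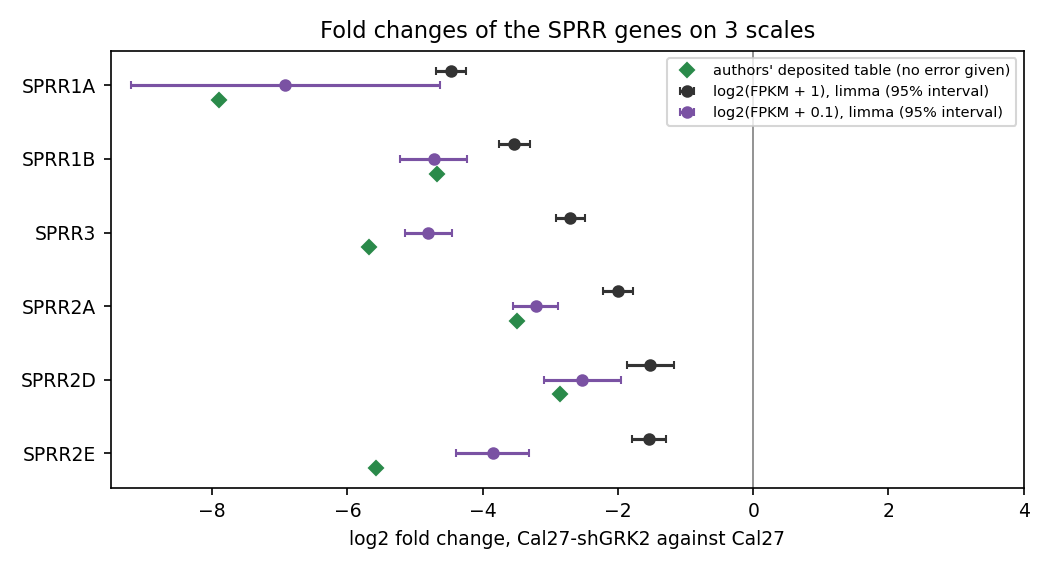
Log2 fold change of each SPRR gene on 3 scales: limma on log2(FPKM + 1) and on log2(FPKM + 0.1), each with its 95% interval, and the authors' deposited value. The order of the genes changes with the scale: SPRR3 and SPRR2E move from -2.70 and -1.54 to -4.80 and -3.85 at the smaller pseudocount, and all values are below 0.

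The order of the fold changes depended on the scale. On log2(FPKM + 1) it was SPRR1A, SPRR1B, SPRR3, SPRR2A, SPRR2E and SPRR2D, from the lowest. On log2(FPKM + 0.1) SPRR3 (-4.80) came before SPRR1B (-4.72), and SPRR2E (-3.85) before SPRR2A (-3.22) and SPRR2D (-2.52). In the authors' deposited table SPRR3 (-5.68) and SPRR2E (-5.57) also lay below SPRR1B (-4.68), SPRR2A (-3.49) and SPRR2D (-2.85). That table called 5 of the 6 genes lower, beside 7.08% of its 18678 genes called lower and 15.4% called either way, and the q-value of SPRR2E, 0.0490, was just under 0.05. Whether one SPRR gene changed more than another was not tested.

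The order of the levels, by contrast, was the same in the 3 Cal27 libraries: SPRR1A, SPRR1B, SPRR3, SPRR2A, SPRR2D and SPRR2E from the highest. Between neighbours the ranges over libraries were apart except for SPRR2A and SPRR2D (4.17 to 5.14 and 2.56 to 4.21 FPKM), which overlapped narrowly. In Cal27-shGRK2 the order was not fixed. SPRR1B came first in both libraries, but its range of 0.405 to 0.734 FPKM overlapped those of SPRR2A and SPRR2D, and SPRR1A was above SPRR3 and SPRR2E in 1 library and last in the other.

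The shares of the single genes in the summed SPRR FPKM differed between the groups. SPRR1A and SPRR1B together held 70.0% to 72.7% of the summed SPRR FPKM in Cal27 against 30.0% to 45.0% in Cal27-shGRK2. SPRR2A, SPRR2D and SPRR2E held 16.1% to 18.6% in Cal27 and 48.6% to 61.2% in Cal27-shGRK2, while SPRR3 held 10.4% to 11.4% and 6.35% to 8.75%. As sums, the SPRR1 pair went from 41.3 ± 1.58 (SD, n = 3) to 1.04 and 0.405 FPKM and the SPRR2 genes from 9.83, 11.4 and 9.08 to 1.12 and 0.825 FPKM. The shares of SPRR1 and SPRR2 did not overlap between the groups, and no test was made of them. In Cal27-shGRK2 they rest on values below 1 FPKM. The 30.0% and 61.2% are from replicate 2, where SPRR1A is listed at 0. SPRR1A is also scaled on an unlike gene model, and the SPRR2 genes share sequence, so a change in RNA make-up is not shown.

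Since the members moved together, the 250 bases before the RefSeq transcript start (GRCh38.p14) are printed for the 4 genes that had an entry, SPRR1A (chr1:152983831-152984080, plus strand), SPRR1B (chr1:153030953-153031202, plus), SPRR3 (chr1:153001499-153001748, plus) and SPRR2A (chr1:153057513-153057762, minus). Capitals mark matches to the AP-1 motif TGANTCA, the TATA box TATAAA and the octamer ATGCAAAT, searched on both strands. AP-1 is the FOS and JUN family of dimers, which are known to act at SPRR promoters together with ETS factors and, at SPRR2A, with an octamer-binding factor.
SPRR1A: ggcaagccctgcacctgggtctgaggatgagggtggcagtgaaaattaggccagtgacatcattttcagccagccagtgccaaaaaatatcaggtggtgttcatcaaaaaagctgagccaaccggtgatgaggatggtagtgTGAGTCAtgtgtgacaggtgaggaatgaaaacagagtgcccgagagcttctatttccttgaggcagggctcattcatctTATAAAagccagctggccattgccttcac
SPRR1B: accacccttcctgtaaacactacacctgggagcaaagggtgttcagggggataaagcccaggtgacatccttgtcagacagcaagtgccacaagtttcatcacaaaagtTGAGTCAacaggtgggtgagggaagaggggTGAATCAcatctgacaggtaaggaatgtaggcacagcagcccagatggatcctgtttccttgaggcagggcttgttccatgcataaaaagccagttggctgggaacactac
SPRR3: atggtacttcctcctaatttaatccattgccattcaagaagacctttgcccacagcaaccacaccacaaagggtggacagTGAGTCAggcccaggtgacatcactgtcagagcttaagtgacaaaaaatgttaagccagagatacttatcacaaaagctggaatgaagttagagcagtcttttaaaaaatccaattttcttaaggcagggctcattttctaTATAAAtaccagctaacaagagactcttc
SPRR2A: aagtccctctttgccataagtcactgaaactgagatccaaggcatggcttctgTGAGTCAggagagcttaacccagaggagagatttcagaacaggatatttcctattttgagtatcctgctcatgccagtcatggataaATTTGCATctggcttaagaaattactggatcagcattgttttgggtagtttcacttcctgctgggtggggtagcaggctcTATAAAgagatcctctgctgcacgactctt

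Each of the 4 windows held the AP-1 letters, which 6.57% of 35116 RefSeq promoter windows of the same length hold. Among family genes outside the 6, the letters were also in the SPRR2F and SPRR2G windows but not in those of SPRR2B, SPRR4 and SPRR5. The match began 108 bases before the start in SPRR1A, 170 in SPRR3, 197 in SPRR2A, and 141 and 111 in SPRR1B, where a window with at least 2 matches is found in 0.402% of promoters. The TATA letters began 29 or 30 bases before the start in SPRR1A, SPRR3 and SPRR2A, and those letters are not in the SPRR1B window. At any position and on either strand, 10.7% of windows hold them. The octamer letters were in SPRR2A alone of the 4, on the minus strand (1.63% of windows). Outside the 4 they also began 108 bases before the start in SPRR2B and 109 in SPRR2F. The ETS core GGAA occurred 2 to 6 times in each but is in 92.7% of windows. SPRR1A and SPRR1B share a run of 18 bases, tttccttgaggcagggct, of which SPRR3 holds the last 10, aggcagggct. Those last 10 bases occur, on either strand, in 112 of the 35116 windows. No motif match overlapped another, and a match is a description of letters, not of binding.

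**Figure D3:**
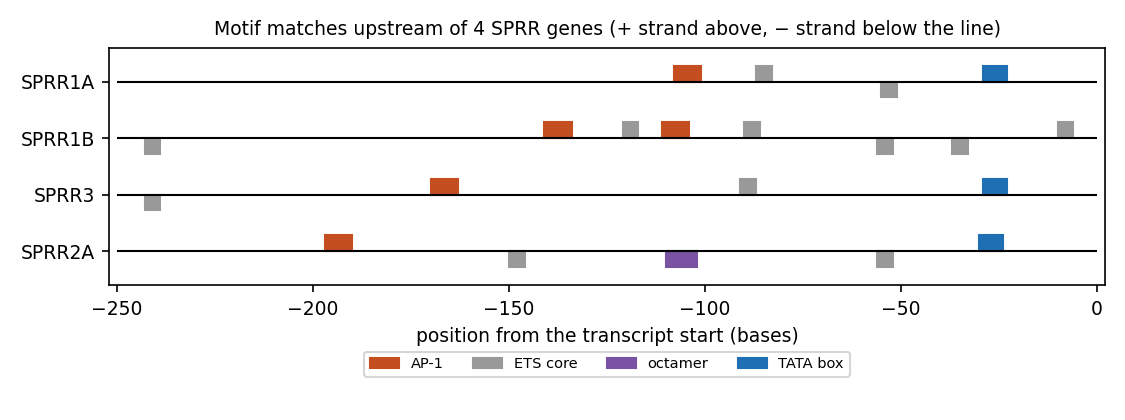
Positions of AP-1, ETS core, octamer and TATA box matches in the 250 bases before the start of SPRR1A, SPRR1B, SPRR3 and SPRR2A, with plus-strand matches above and minus-strand matches below each line. AP-1 matches lie 108 to 197 bases before the start in all 4 genes, and the octamer in SPRR2A.

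Transcription factors known to act on squamous genes did not move in 1 direction. Of 28 on the list, 20 were tested, 6 were called lower, 6 were called higher and 8 missed the threshold. Their median log2 fold change was 0.01, beside -0.01 for all genes, of which 14.6% were lower and 15.0% higher. Of the AP-1 subunits called, 3 were lower (JUNB, FOS and JUND, with log2 fold changes of -0.53, -0.41 and -0.37) and 3 were higher (FOSL1, JUN and FOSL2, with 0.91, 0.46 and 0.44). JUND, JUN and FOSL2 were named after their values were seen. FOSL1, the most abundant on the list, went from 212, 254 and 232 FPKM in Cal27 to 416 and 461 FPKM in Cal27-shGRK2 (SE of the log2 fold change 0.08, limma adjusted p = 7.5e-07). The FOS call was lost without the repeated Cal27-shGRK2 library (limma adjusted p = 0.27) and with rescaling to a common total (0.052). Of the ETS factors, ELF3, the epithelial member, fell by 0.82 and ETS1 rose by 1.13. TP63, the master factor of squamous lineage, fell by 1.51, from 32.0, 32.1 and 31.4 FPKM to 10.5 in both libraries.

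Other cornified envelope genes moved both ways. Of 46 symbols on that list, 16 were in the table and 13 were tested, of which 6 were called lower, 3 were called higher and 4 missed the threshold. The median was -0.17, beside -0.01 for all genes tested, of which 14.6% were lower and 15.0% higher. CSTA, the envelope cystatin A, fell by 2.48 (52.5, 51.5 and 52.7 to 8.92 and 8.15 FPKM), and PI3, the transglutaminase substrate elafin, by 1.98 (3.44, 4.0 and 3.23 FPKM to 0.337 and a listed 0). ANXA1 fell by 0.52 and SCEL, encoding sciellin, by 0.40, a call lost without the repeated Cal27-shGRK2 library (limma adjusted p = 0.079). Against that direction, cystatin CST6 rose by 2.77 and corneodesmosin, CDSN, by 0.66. TGM1, a transglutaminase that cross-links SPRR proteins, named after its values were seen, was at 1.01, 1.43 and 0.995 FPKM in Cal27 against 1.40 and 1.65 FPKM in Cal27-shGRK2 and did not pass (log2 fold change 0.24 ± 0.12, SE, limma adjusted p = 0.15). Involucrin, IVL, a partner of SPRR proteins also chosen after its values were seen, lay under the filter at 1.12, 1.19 and 1.09 FPKM in Cal27 against 0.103 and 0.0961 FPKM in Cal27-shGRK2. With no filter its log2 fold change was -0.95 (limma adjusted p = 6.3e-05). FLG, encoding filaggrin and likewise under the filter and chosen after its values were seen, went the other way. It was at 0.0354, 0.0442 and 0.0390 FPKM in Cal27 against 0.392 and 0.425 FPKM in Cal27-shGRK2, and with no filter its log2 fold change was 0.44 (limma adjusted p = 0.0030).

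Among keratins of differentiating or activated squamous cells, 6 of 9 tested fell and 1 rose, beside 14.6% and 15.0% of all genes tested. Their median was -1.60, beside -0.01 for all genes. KRT13 and KRT4, the keratin pair of mucosal suprabasal cells, had log2 fold changes of -4.51 and -2.62, with KRT4 at 5.26, 4.98 and 5.34 FPKM in Cal27 against 0.0092 and 0.0074 FPKM in Cal27-shGRK2. KRT17 fell by 3.03. KRT6A fell by 3.42, a call lost without any 1 of Cal27 replicates 0, 1 and 2 (limma adjusted p = 0.081, 0.076 and 0.083, log2 fold changes -3.44, -3.33 and -3.48). A replicate block also lost the call (limma adjusted p = 0.19), at the log2 fold change of -3.33 found without Cal27 replicate 1. KRT80 rose by 0.69. KRT6A and KRT17 are also on the list of 10 squamous markers given above, as TP63 is.

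Position along the chromosome was described for genes other than SPRR between S100A10 and S100A1. Of 23 such genes, 14 were tested, of which 6 were called lower, 4 higher and 4 neither. The rest, IVL, FLG and RPTN among them, lay under the filter and were left out of this description. Values of IVL and FLG are given above. Over all genes tested, 14.6% were lower and 15.0% higher. The median log2 fold change of the 14 was -0.09, beside -0.01 for all genes. The 6 SPRR genes occupy 121.0 kb, in the order SPRR1A, SPRR3, SPRR1B, SPRR2D, SPRR2A and SPRR2E, and no other tested gene lies among them. The nearest tested genes on the S100A1 side were S100A9, S100A8 and S100A7, calcium-binding alarmins 326.7 to 426.5 kb from the start of SPRR1B, with log2 fold changes of -2.45, -3.65 and -2.77. S100A2, at 529.9 kb, fell by 1.35. Between and beyond them, S100A5 and S100A16, at 505.9 and 575.7 kb, rose by 0.44 and 0.38. The S100A list as a whole had 6 of 13 tested genes lower and 4 higher, beside the same shares of all genes, with a median of -0.17.

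**Figure D4:**
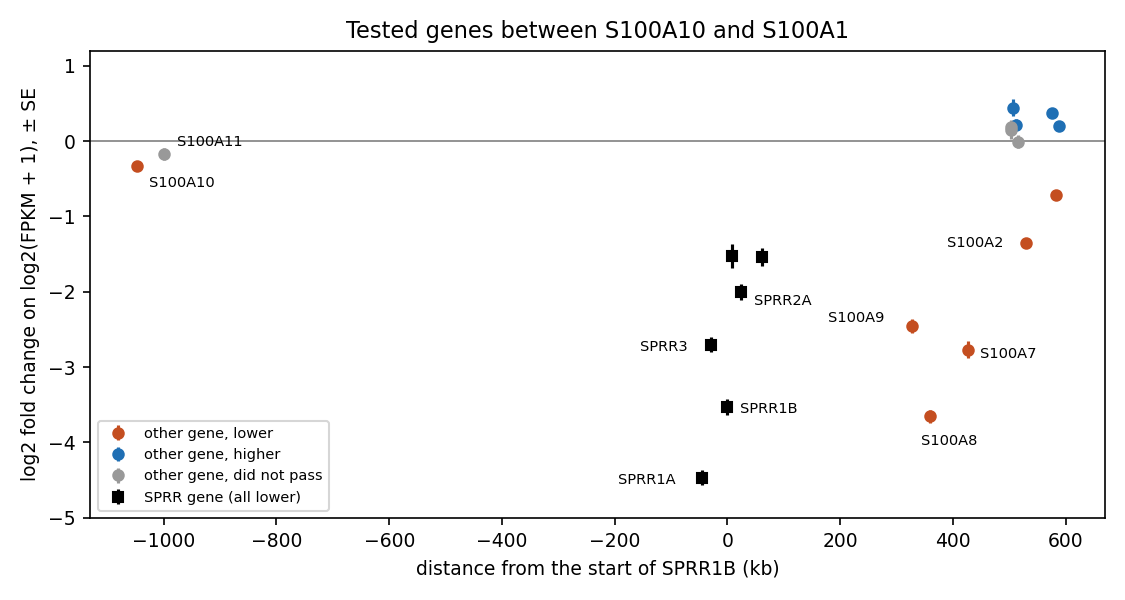
Log2 fold change on log2(FPKM + 1), with its SE, of each tested gene between S100A10 and S100A1, against the distance of its lower coordinate from that of SPRR1B in kb. The SPRR genes form 1 group with values of -1.52 to -4.47; S100A9, S100A8 and S100A7 lie below -2, and genes from 502.4 kb on lie on both sides of 0.

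**Figure D5:**
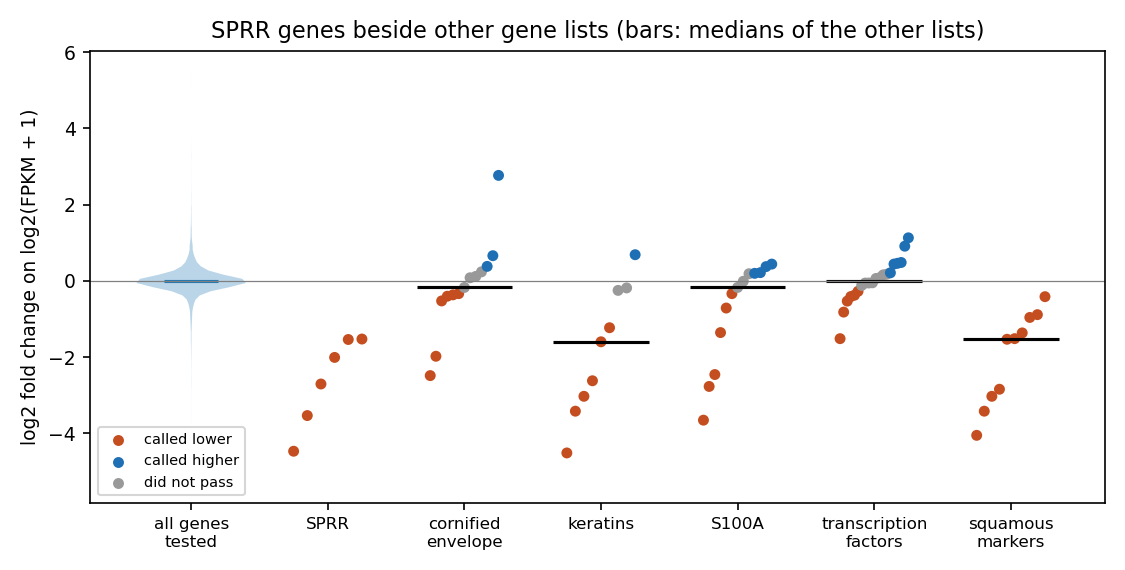
Log2 fold changes on log2(FPKM + 1) of the SPRR genes and of the tested members of 5 gene lists, 1 point a gene, beside the spread of all 13377 genes tested; bars are medians, not drawn for SPRR. The cornified envelope, S100A and transcription factor lists have genes on both sides of 0, whereas the 10 squamous markers lie below it.

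The genes with the profile most like each SPRR gene were taken by the root mean square difference of log2(FPKM + 1), centred on each gene's mean, over the 5 libraries. For SPRR1A they were KRT13 (0.15), KRT14 (0.26) and H19 (0.43), and for SPRR1B PTHLH (0.13), H19 (0.13) and S100A8 (0.20). SPRR3 was nearest to the water channel AQP3 (0.08), ACKR3 (0.10) and CRIP2 (0.10). SPRR2A was nearest to SLPI (0.05), a protease inhibitor of mucosal secretions that went from 52.2, 52.1 and 47.2 to 11.4 and 11.9 FPKM, then to BMP7 (0.09) and IRX1 (0.10). SPRR2D was nearest to GPX2 (0.11), PLSCR4 (0.14) and KRT16 (0.14), and SPRR2E to PTPRZ1 (0.06), TFPI (0.08) and C10orf54 (0.08). All 18 of these places are held by genes lower in Cal27-shGRK2, since the step between the groups makes up most of each profile.

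Markers of other cell types were present at unlike levels. Of 8 fibroblast markers, 4 were in the table and 3 of these stayed under 1 FPKM, with a summed level of 4.35 to 4.71 FPKM in Cal27 against 4.38 to 4.46 FPKM in Cal27-shGRK2. Blood and endothelial markers, 4 of 8 in the table, summed to 5.90 to 6.63 FPKM in Cal27 against 11.97 to 12.7 FPKM in Cal27-shGRK2. The 2 tested, CD68 and CDH5, were called higher, beside 15.0% of all genes tested. CD14, under the filter, was at 0.706, 0.790 and 1.15 FPKM in Cal27 against 0.527 and 0.732 FPKM in Cal27-shGRK2. CD34, also under it, was at 0.858, 0.687 and 0.788 FPKM against 0.871 and 0.918 FPKM. Markers of simple and glandular epithelium, 4 of 8 in the table, summed to 54.8 to 57.3 FPKM in Cal27 against 95.9 to 101 FPKM in Cal27-shGRK2. Of the 3 tested, KRT7 and GATA3 were called higher, and MUC1 missed the threshold (log2 fold change -0.096). KRT7, a keratin of simple epithelium, held most of that sum, at 47.6, 43.9 and 44.9 FPKM in Cal27 against 82.0 and 86.4 FPKM in Cal27-shGRK2. None of these markers in the table was listed at 0 in any library, and their part in the SPRR result was not tested.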

How the data were processed

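The authors deposited FPKM for each library and condition. Their table also holds a log2 fold change, a score (test statistic), p-values and q-values, per the file headers. The submitters' processing notes name the build hg38, Cuffdiff 2.2.1, TopHat2 2.1.0 and Bowtie2 2.2.6; the annotation and the handling of reads that match several genes are not given in the sources used here. A value of 0.0001 was read as 0. Log2(FPKM + 1) was tested with limma 3.58.1 (R 4.3.3, trend and robust, 3 residual degrees of freedom) on genes whose mean over libraries reached 1 FPKM. The script was tested on simulated data.

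The SPRR genes and the gene lists were chosen with earlier results of these data known. Genes named outside the family are GRK2, up to 4 falls and 2 rises called in each list, and the 3 nearest profiles of each SPRR gene; TGM1, IVL, FLG, JUND, JUN and FOSL2 were added after their values were seen. Positions, transcripts and coding sequences are from GENCODE version 29, promoters from RefSeq (4 of 6 genes matched), and alignments were made with Biopython 1.88. Alternatives were other pseudocounts, filters and scalings, limma without trend, a replicate block, leaving out each library, and an additional library computed from the authors' condition value.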

Additional observations from a re-analysis of the deposited data

How the results depend on the processing

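Every SPRR gene kept its direction and its call under each alternative that gave it a value. The ranges of the log2 fold change were -6.92 to -4.27 for SPRR1A, -4.72 to -3.38 for SPRR1B, -4.80 to -2.64 for SPRR3, -3.22 to -1.94 for SPRR2A, -2.52 to -1.38 for SPRR2D and -3.85 to -1.48 for SPRR2E, and the highest limma adjusted p was 0.011, for SPRR1A at a pseudocount of 0.1. With a mean of at least 5 FPKM, 2 SPRR genes (SPRR1A and SPRR1B) remained in the test and were called, and 3 cornified envelope genes were lower and 1 higher, because fewer genes were tested. Leaving out 1 library gave 1088 to 1843 genes lower and 1218 to 2205 higher over all genes; without Cal27 replicate 2, SPRR2E was under the filter and 5 SPRR genes were called. Of 596 values for 44 named genes outside the family, 7 lost their call (KRT6A, FOS and SCEL, as given above) and 0 reversed. TGM1, IVL, FLG, JUND, JUN and FOSL2, named after their values were seen, were not among the 44.

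The replicate numbers are shared between the groups, and 2 pairs remain after counting the repeated column once. Deviations of same-numbered libraries correlated at 0.080 and 0.017, and those of Cal27 replicate 1 and Cal27-shGRK2 replicate 2 at 0.071. With 2 Cal27-shGRK2 libraries, the deviations of 1 mirror those of the other, so these values cannot decide whether samples were paired. The numbers were not taken to pair the samples. With a replicate block, 6 SPRR genes were lower, and 1809 genes were lower and 2151 higher over all genes. Only Cal27 has a distinct replicate 1, so the block absorbs that library. The fold changes with the block are therefore those without Cal27 replicate 1, and the 2 alternatives are not separate checks of them. Depth is unknown, so a value near 0 cannot be given a counting interval.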

Other observations

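The authors' condition value bears on a library that the repeated column does not show. For Cal27 it matched the mean of the 3 columns within a relative tolerance of 1e-04 in 13370 of 13383 genes, but for Cal27-shGRK2 it did so in 44 of 13383. An additional library computed as 3 times that value minus the 2 distinct columns was below -0.01 FPKM in 0 of 18678 genes. In it SPRR1B was at 0.856 FPKM, SPRR2A at 0.423, SPRR2D at 0.379, SPRR3 at 0.108, SPRR2E at 0.0309 and SPRR1A at 0. These 6 values were all under 1 FPKM, as in the 2 distinct Cal27-shGRK2 libraries, and with this library added the 6 genes were again called lower by limma.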
